A study of Mus musculus with 24 samples.

Results

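The 5p strands of mouse miRNA entries numbered from miR-6896-5p to miR-7094-5p were followed in serum exosome RNA, taking every miRNA of the array whose number lies in that range and whose name ends in 5p. This gave 196 of the 1881 miRNAs on the array, read by 402 of its 4415 probes. The study placed RNA from serum exosomes on 24 one-colour Agilent arrays. The arrays form 6 groups of 4. The mice were male BALB/c and were dosed over 3, 9 or 21 days, either with 80 mg/kg of toosendanin (TSN), a triterpenoid that is found in a plant and can injure the liver, or with vehicle, and serum was taken a day after the last dose. All groups share strain and sex. The animals' age and genotype are not stated, and neither is whether a sample is 1 animal or a pool, so the p-values below measure the spread between these samples. The series title places the work in the response to drug-induced liver injury.

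Mirtrons are miRNAs cut from short introns. The intron is spliced out, its lariat is opened, and the RNA folds into a hairpin that enters the pathway at Dicer without the nuclear Drosha step. The 5p strand starts at or near the splice donor and is often rich in G, while the 3p strand ends near the splice acceptor and is rich in pyrimidines. The label of a mirtron range comes from the numbering, and each entry's origin was not tested here. By RefSeq coordinates (GRCm38.p6), all 172 members with a mature sequence in the reference table lay within the span of a protein-coding gene, on 19 chromosomes, and 169 of them within 1 such gene. Whether a member lies in an intron or exon of it was not read, since the table used holds no exons.

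Mature sequences of members described below are shown 5′ to 3′ from RefSeq, with the seed (bases 2 to 8), the part that pairs with targets, in capitals. The first 6 were among the brightest in vehicle arrays, miR-6931-5p was the brightest in TSN arrays, the next 3 had some of the largest falls in scaled signal, and miR-6934-5p was seen in TSN arrays only.
miR-7047-5p: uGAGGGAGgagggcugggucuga
miR-7015-5p: uCUGUGCAguaggcuguggguuc
miR-6908-5p: uUGCCUGUcagggagagcccca
miR-6978-5p: aAGGGGUGagagagaagcuggug
miR-6937-5p: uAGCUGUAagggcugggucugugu
miR-6987-5p: uGGGACAGggugacagggugag
miR-6931-5p: uGGGGUGGggagugggggacu
miR-7084-5p: uAGAGGAUagagguagagagu
miR-6946-5p: aAAAGGGAgagaaagaaaugc
miR-6938-5p: uUGGAGCUagcuccagagagagu
miR-6934-5p: uUGGUGGAgacagcaagggugg
On GRCm38.p6, miR-6937-5p lies on the plus strand at chr12:28679325-28679348 within Adi1. miR-6931-5p lies at chr11:102999896-102999916 within Dcakd, and miR-6978-5p at chr17:57217201-57217223 within C3, both on the minus strand. miR-7084-5p lies at chr9:22113988-22114008 within Elof1, also on the minus strand. miR-7042-5p, miR-7040-5p and miR-6957-5p, which the results also turn on, are among 24 members given by name.

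The members were rich in G. Over the 172 with a sequence the median share of G was 43.5%, against 27.3% over 491 other 5p miRNAs of the array and 14.3% over 171 of the 3p strands with the same numbers, whose median share of C was 40.9%. A run of 4 G (GGGG, read on the miRNA strand only) was present in 63 of the 172 (36.6%), in 11.2% of the other 5p miRNAs and in 8.29% of all miRNAs that are no members. A GU start, the letters of a splice donor, was present in 14 (8.14%), against 4.68% of other 5p miRNAs. The median share of G was 50.0% in members detected on all 24 arrays, 47.6% in those detected on some and 41.3% in those detected on none. The files' probes read the 3′ part of each miRNA: all 172 probe targets ended at the last base, they began at a median base of 8 (range 2 to 14), and 80 lay wholly beyond the seed.

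Detection came first. A miRNA was called well above background on an array where over 0.5 of the spots of its brightest probe carried the scanner software's mark for that (gIsWellAboveBG). Of the 196 members, 27 were well above background on all 24 arrays, 59 on 1 to 23 and 110 on none. In vehicle arrays, 33, 32, 40 and 45 members were above background at day 3, 33, 28, 46 and 28 at day 9, and 29, 45, 58 and 37 at day 21. In TSN arrays the counts were 78, 68, 73 and 78 at day 3, 70, 71, 73 and 71 at day 9, and 82, 74, 85 and 82 at day 21. At each day the lowest TSN array lay above the highest vehicle array.

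The mean count was 74.2 ± 4.79 with TSN against 37.5 ± 6.14 with vehicle at day 3, 71.2 ± 1.26 against 33.8 ± 8.5 at day 9, and 80.8 ± 4.72 against 42.2 ± 12.4 at day 21 (SD, n = 4 each). The differences of 36.8, 37.5 and 38.5 members each had an exact two-sided permutation p of 0.0286, the smallest that 4 against 4 arrays can give, and 0.0286 after Benjamini-Hochberg adjustment over the 3 days. No member was above background on some vehicle array and on no TSN array. In the other direction, 64 members were above background on all 12 TSN arrays and 28 on all 12 vehicle arrays. On every TSN array and on no vehicle array were 10 members: miR-6934-5p, miR-6956-5p, miR-6974-5p, miR-6980-5p, miR-6990-5p, miR-6991-5p, miR-7009-5p, miR-7019-5p, miR-7028-5p and miR-7081-5p. Detection rose over the rest of the array too, from a mean of 12.1% of other miRNAs on vehicle arrays to 21.7% on TSN arrays. How many other miRNAs follow these patterns was not counted, so the patterns are not shown to be particular to the members.

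The TSN arrays were also brighter. The 75th percentile of signal, over 261 probes well above background on every array, was 7.23-fold higher with TSN at day 3, 11.8-fold at day 9 and 5.87-fold at day 21. Of 4 kinds of control spike on the arrays, 2 had nearly the same signal in both arms (TSN over vehicle 0.949 and 0.945) and 2 were higher with TSN (3.2-fold and 3.09-fold). Over the 12 vehicle arrays the count of members above background rose with the log2 of this percentile (Pearson r = 0.971, permutation p = 2e-05, the smallest that 100000 resamples can give; Spearman rho = 0.947, permutation p = 2e-05; both 8e-05 after adjustment over 4 sets of arrays; r = 0.952 without the 2 arrays farthest from the median). Within the 8 vehicle arrays of 1 slide r was 0.955 (exact permutation p = 0.00119, adjusted 0.00238) and rho 0.933 (p = 0.00198, adjusted 0.00396). Over the 12 TSN arrays it was 0.411 (permutation p = 0.166, adjusted 0.221; rho 0.176, p = 0.58, adjusted 0.676), and 0.0731 without the 2 farthest. No slide held both arms, so treatment and slide cannot be told apart.

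**Figure D1:**
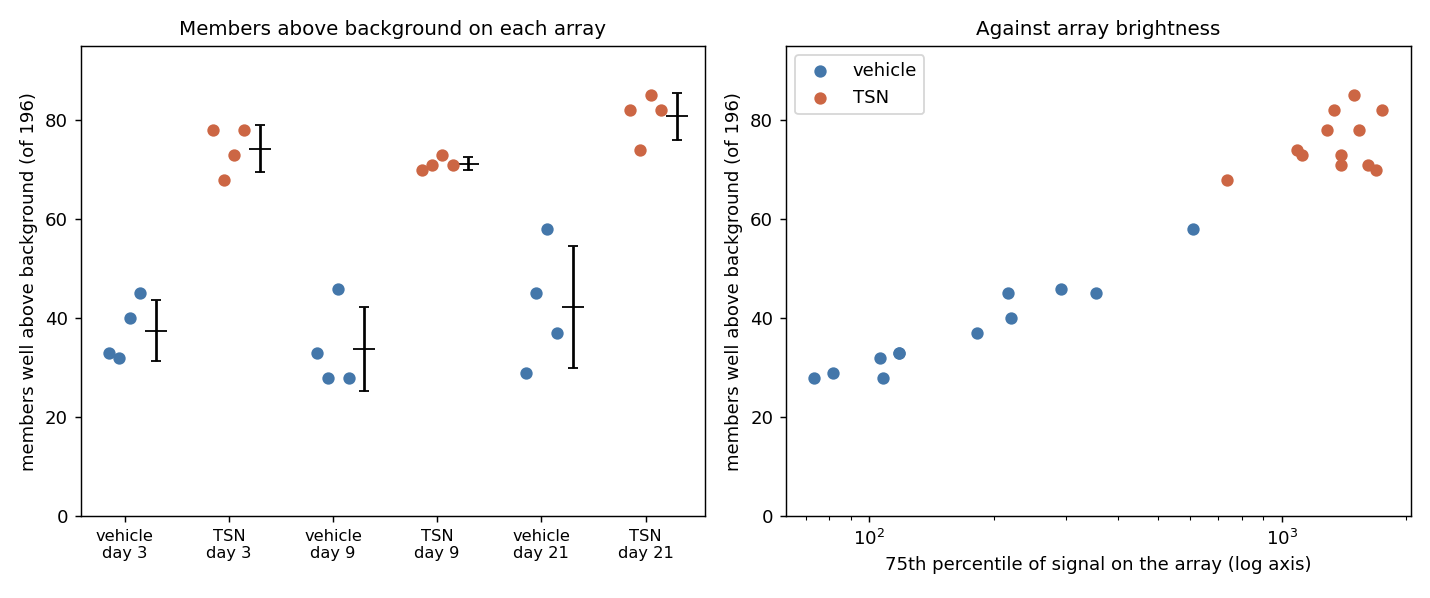
Left, members well above background (of 196) on each array by group, points being arrays and bars the mean and SD of 4 arrays. Right, the same counts against the array's 75th percentile of signal on a log axis. Vehicle arrays held 28 to 58 members and TSN arrays 68 to 85, and the TSN arrays lie to the right of all vehicle arrays.

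Members were detected more often than the other 1685 miRNAs in both arms. On vehicle arrays a mean of 19.3% of members was above background against 12.1% of other miRNAs, a difference of 7.17 ± 2.03 percentage points (SD over 12 arrays) that was positive on 12 of 12. On TSN arrays the shares were 38.5% and 21.7%, a difference of 16.8 ± 2.06 points, also positive on 12 of 12. The exact two-sided sign-flip permutation p was 0.000488 in each arm and the same after adjustment over the 2 arms. This p measures only how steadily the difference held from array to array. Every array reads the same miRNAs, so it cannot show whether another set of miRNAs would differ as much. Of all miRNAs above background on an array, members made up 14.5% to 16.7% with vehicle and 16.1% to 18.2% with TSN.

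The 3p strands of the same numbers were detected less often. Among 194 numbers with both strands on the array, the 5p strand alone was above background on at least 1 array in 80, the 3p strand alone in 5, both in 5 and neither in 104. Of 195 3p strands, 6 passed the filter for testing and 1 was above background on all 24 arrays. All 6 were lower with TSN in scaled signal at day 3 and day 9 (median log2 change -2.20 and -2.73), and 5 at day 21 (median -1.40). Of all 441 miRNAs tested, 18.6%, 34.5% and 21.8% were lower at these days. miR-6943-3p, miR-7055-3p and miR-7085-3p were above background on no TSN array and passed the filter only through vehicle groups, which set their direction. miR-6976-3p was above background on no vehicle array but on 3 and 4 TSN arrays at days 3 and 9, so its lower scaled calls go against detection. Without scaling miR-6976-3p was higher at each day (0.37, 1.53 and 1.95) and miR-7080-3p lower at days 3 and 9 (-0.60 and -0.54; limma, adjusted p = 9.48e-05 and 0.00027). At day 9 miR-7022-3p, miR-7055-3p and miR-7085-3p were lower without scaling as well (-0.38, -0.25 and -0.33; limma, adjusted p = 0.0123, 0.0333 and 0.0122).

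Levels were compared in 2 ways. For the scaled signal, values were divided by the array's 75th percentile, raised to 0.0135 where they were lower, and logged, so that the floor stands at -6.21 on the log2 scale. A scaled value of 0 is thus the level of that percentile. For the unscaled signal the scanner software's processed signal was used as deposited, with a floor of 9.63. The test covered 441 miRNAs, those above background throughout 1 or more of the 6 groups, among them 73 members; the other 123 members were not tested. limma with Benjamini-Hochberg adjustment over the 441 gave the calls (adjusted p under 0.05).

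The 2 scales gave different accounts of the same members. In scaled signal at day 3, 13 of 73 members were higher with TSN (17.8%, against 29.3% of all 441 tested) and 15 were lower (20.5% against 18.6%). At day 9, 16 were higher (21.9% against 27.7%) and 34 lower (46.6% against 34.5%). At day 21, 18 were higher (24.7% against 23.1%) and 10 lower (13.7% against 21.8%). The median log2 change of the 73 was 0.00, -0.32 and 0.07 at the 3 days, beside 0.10, -0.04 and 0.01 over all 441.

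In unscaled signal, 62, 61 and 72 of the 73 members were higher with TSN at days 3, 9 and 21 (84.9%, 83.6% and 98.6%, against 87.5%, 89.3% and 93.7% of all tested) and none was lower (against 0.454%, 1.36% and 0% of all tested). In scaled signal 34, 52 and 32 members had an unadjusted limma p under 0.05 at these days. The share over all 441 was not counted, so these numbers are not shown to be particular to the members. The median unscaled change of the members was 1.89, 1.96 and 1.99, beside 2.20, 2.42 and 2.07 over all 441. Leaving out the scaling adds 2.85, 3.56 and 2.55 to the change of every miRNA whose values are off both floors, and these medians are lower because many miRNAs have values at a floor. Of the members lower in scaled signal, 7, 25 and 9 were called higher in unscaled signal, and the other 8, 9 and 1 were not called. All 13, 16 and 18 members higher in scaled signal were higher in unscaled signal as well.

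The split between higher and lower also turned on which probes set the scale. With the 75th percentile taken over all probes it was 23 higher and 8 lower at day 3, 29 and 7 at day 9, and 17 and 4 at day 21. Scaled by the control spikes it was 60 and 0, 56 and 1, and 64 and 0. The authors' own processed values gave 28 and 16, 38 and 17, and 23 and 9, and a normexp background correction gave 3 and 64, 4 and 68, and 3 and 61. These counts move with the whole array: over all 441 the median change with normexp was -1.51, -1.74 and -1.17, and 78.9%, 84.4% and 77.6% were called lower, while with the spikes 83.4%, 83.2% and 81% were called higher. Quantile normalization gave 17 and 16, 22 and 24, and 18 and 10.

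**Figure D2:**
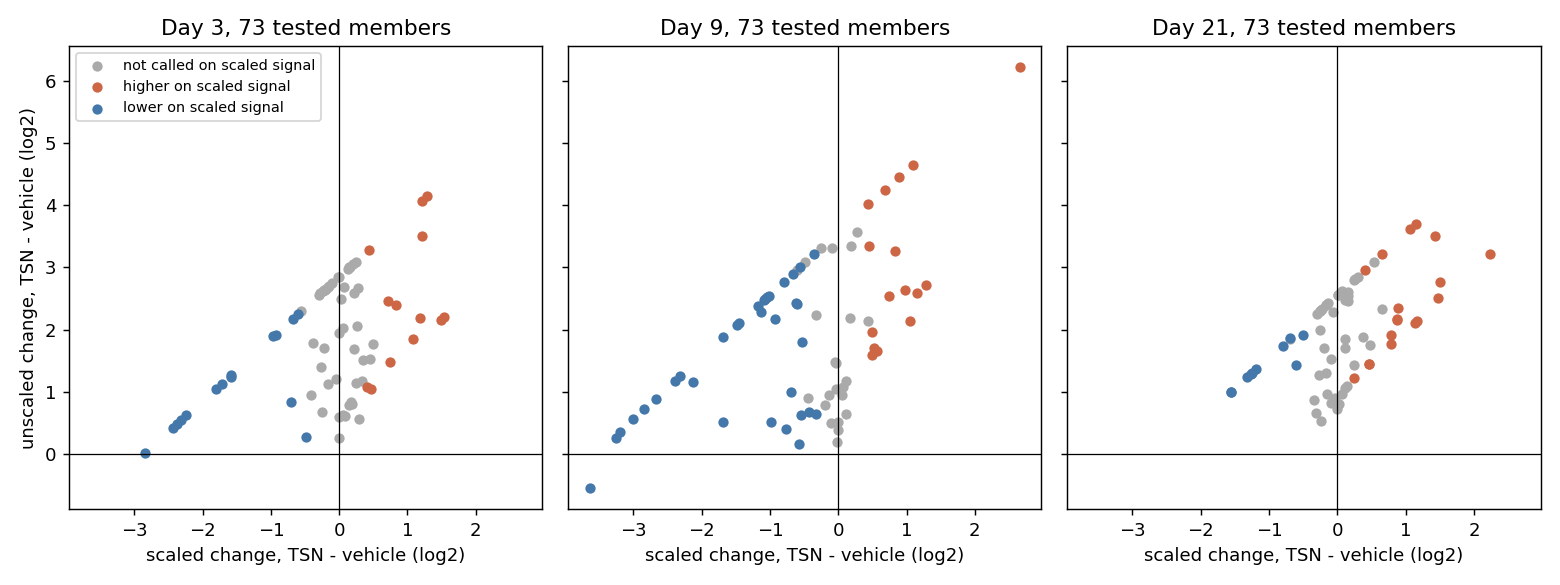
Log2 change with TSN against vehicle in scaled signal (horizontal) and unscaled signal (vertical) for the 73 tested members at each day, coloured by the limma call on scaled signal. Points off the upper diagonal have values at a floor on at least 1 of the scales. At day 9 a single member lies below the horizontal line at 0, and at days 3 and 21 none does.

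Many calls rest on members that vehicle arrays could not measure. Only 32, 27 and 29 of the 73 were above background on all 8 arrays of a comparison. Among these, 3 were higher and 12 lower at day 3 (9.38% and 37.5%, beside 25.8% and 28.0% of the 182 miRNAs so measured). At day 9 it was 5 and 19 (18.5% and 70.4%, beside 23.6% and 46.6% of 161), and at day 21 it was 4 and 8 (13.8% and 27.6%, beside 15.1% and 31.8% of 179). At each day 8 of the members called higher were above background on no vehicle array, and their size is not measured. Members called lower were also among those above background on no vehicle array, 1 at day 3, 5 at day 9 and 0 at day 21. At day 9 miR-6970-5p (-0.55), miR-6980-5p (-0.43) and miR-6997-5p (-0.32) were called lower in scaled signal while above background on all 4 TSN arrays and on no vehicle array; their TSN values were at the floor, and unscaled they were higher (0.63, 0.67 and 0.65). One of the members called higher gave a lower bound: miR-6934-5p at day 21 was at least 1.92-fold higher with TSN, taking for each vehicle array the lowest signal well above background on it; with the normexp correction its change was -0.97, beside a median of -1.17 over all miRNAs. Its unscaled signal on vehicle arrays lay between -0.889 and 4.4, and on TSN arrays it was 66.4, 24.8, 33.2 and 62.7 at day 3, 28.9, 23.1, 50.3 and 21.0 at day 9, and from 55.0 to 126 at day 21.

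Over the 3 days, 11 members were higher at each day in scaled signal (15.1%, beside 13.8% of all 441), 9 lower at each day (12.3% beside 13.2%), 16 called at no day (21.9% beside 21.5%), and none called in opposite directions. Those higher at each day were miR-6908-5p, miR-6909-5p, miR-6931-5p, miR-6934-5p, miR-6935-5p, miR-6974-5p, miR-6990-5p, miR-7002-5p, miR-7028-5p, miR-7042-5p and miR-7046-5p. Of these 11, only miR-6908-5p, miR-6931-5p and miR-7042-5p were above background on all 24 arrays. Those lower at each day were miR-6937-5p, miR-6938-5p, miR-6946-5p, miR-6957-5p, miR-6978-5p, miR-7047-5p, miR-7056-5p, miR-7075-5p and miR-7084-5p. The 3 comparisons use separate control arrays. In unscaled signal 59 members were higher at all 3 days, and miR-6957-5p alone was higher at none. Of all 441, 87.5%, 89.3% and 93.7% were higher in unscaled signal at the single days. Their share over the 3 days together was not counted, so the 59 is not shown to be particular to the members.

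**Figure D3:**
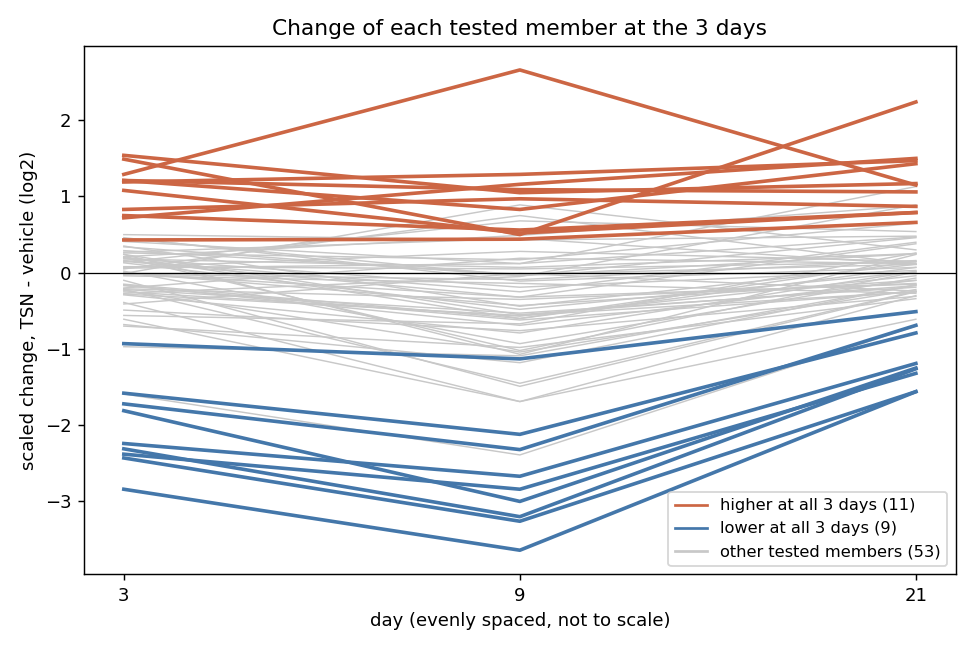
Log2 change in scaled signal with TSN against vehicle at days 3, 9 and 21 (evenly spaced), 1 line per tested member. The 11 members higher at all 3 days are in orange, the 9 lower at all 3 in blue and the other 53 in grey; miR-6931-5p has the highest point, 2.66 at day 9, and the lowest point drawn, miR-6957-5p at day 9, is set by the floor.

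Among members above background on all 24 arrays miR-6931-5p rose most. Its scaled log2 signal with vehicle was -0.66, -0.18, -0.52 and -0.14 at day 3, -0.57, -0.95, -0.76 and -0.74 at day 9, and -0.73, -0.58, -1.32 and -0.26 at day 21. With TSN it was 0.73, 1.31, 1.24 and 0.38 at day 3, 1.71, 2.05, 1.11 and 2.75 at day 9, and 0.00, 0.59, 0.50 and 0.59 at day 21. The arms did not overlap at any day, and 3 of the 4 day 9 TSN arrays were higher than every other array. The change was 1.29 (SE 0.284, limma adjusted p = 0.000768), 2.66 (SE 0.284, 1.66e-07) and 1.15 (SE 0.284, 0.0026) on the log2 scale. In unscaled signal it was 4.14, 6.22 and 3.70.

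miR-7042-5p rose by about the same amount at each day. Its scaled signal with vehicle was -1.03, -0.33, -0.57 and -0.47 at day 3, -0.39, -0.72, -0.47 and -0.58 at day 9, and -0.08, -0.34, 0.04 and -0.65 at day 21. With TSN it was 0.76, 0.44, 0.14 and 1.09, then 0.76, 0.19, 1.04 and 0.19, then 0.97, 0.45, 0.68 and 1.1. Every TSN array lay above every vehicle array of its day. The changes were 1.21, 1.09 and 1.06 (SE 0.225 each; limma adjusted p = 0.000155, 0.000353 and 0.000766), and 4.06, 4.65 and 3.61 unscaled.

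miR-6908-5p was bright in both arms, with vehicle values from -0.32 to 0.67 and TSN values from 0.04 to 0.82. Its changes were small, 0.43, 0.44 and 0.66 (SE 0.156; limma adjusted p = 0.0299, 0.0188 and 0.0018), with the arms overlapping at days 3 and 9. A second probe of miR-6908-5p gave 0.12, -0.04 and 0.59, so the sign at day 9 differed between its probes. Leaving out 1 array at a time raised its adjusted p at day 3 to as much as 0.0948, and 6 of 8 such fits lost that call. Called higher at a single day among members measured on all 24 arrays were miR-7040-5p (0.89, SE 0.191, adjusted p = 0.000511) and miR-7005-5p (0.68, SE 0.233, 0.0165) at day 9, and miR-6898-5p (0.40, SE 0.135, 0.0213) at day 21. With the normexp correction the last was -0.57, beside a median of -1.17 over all miRNAs. miR-7005-5p reached an adjusted p of 0.0612 and miR-6898-5p 0.0536 with 1 array left out.

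miR-7047-5p, the brightest member on vehicle arrays, was lower with TSN at each day. With vehicle its scaled signal was 1.16, 1.20, 1.50 and 1.80 at day 3, 0.81, 0.98, 1.20 and 1.76 at day 9, and 0.74, 0.94, 1.35 and 0.89 at day 21. With TSN it was -0.58, -0.43, -1.54 and -0.75, then -1.38, -1.82, -0.73 and -1.99, then -0.38, -0.70, -0.13 and 0.36. No TSN array reached the vehicle arrays of its day. The changes were -2.24, -2.67 and -1.19 (SE 0.292; limma adjusted p = 2.58e-06, 2.27e-07 and 0.0024). In unscaled signal the same member changed by 0.62, 0.89 and 1.36, and the arms overlapped at each day (adjusted p = 0.325, 0.155 and 0.0344).

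miR-6978-5p showed the same order with larger changes. Vehicle arrays gave 0.39, 0.22, -0.35 and 0.60 at day 3, 1.06, 0.29, -0.02 and -0.14 at day 9, and 0.09, -0.48, -0.15 and -0.66 at day 21. TSN arrays gave -2.78, -1.93, -1.93 and -1.77, then from -3.12 to -2.67, then -1.40, -1.33, -1.52 and -1.99. The scaled changes were -2.31, -3.20 and -1.26 (SE 0.267; limma adjusted p = 6.69e-07, 7.02e-09 and 0.000712), beside unscaled changes of 0.54, 0.36 and 1.29. The unscaled signal itself was 66.6 to 288 on the vehicle arrays and 173 to 231 on the TSN arrays of day 9, so the TSN values lay inside the vehicle range.

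miR-7084-5p, a dim member, had scaled values of -2.87, -2.93, -3.44 and -2.50 with vehicle and -6.04, -5.01, -5.32 and -5.09 with TSN at day 3. At day 9 they were -1.93, -2.81, -3.16 and -3.13 against -6.17, -5.92, -5.76 and -6.21, the last of which is the floor. Its unscaled signal was 8.41 to 32.6 with vehicle and 18.4 to 26.7 with TSN at day 9. The scaled changes were -2.43, -3.26 and -1.56 (SE 0.252; limma adjusted p = 2.1e-07, 4.51e-09 and 5.03e-05) and the unscaled ones 0.42, 0.25 and 0.99. miR-6937-5p (-2.38, -2.84 and -1.32) and miR-6946-5p (-1.81 and -1.25 at days 3 and 21) fell in scaled signal at each day too. miR-6957-5p fell by 2.84 at day 3 and by 1.56 at day 21; at day 9 all 4 TSN arrays were at the floor, so its change of -3.64 there is limited by the floor.

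**Figure D4:**
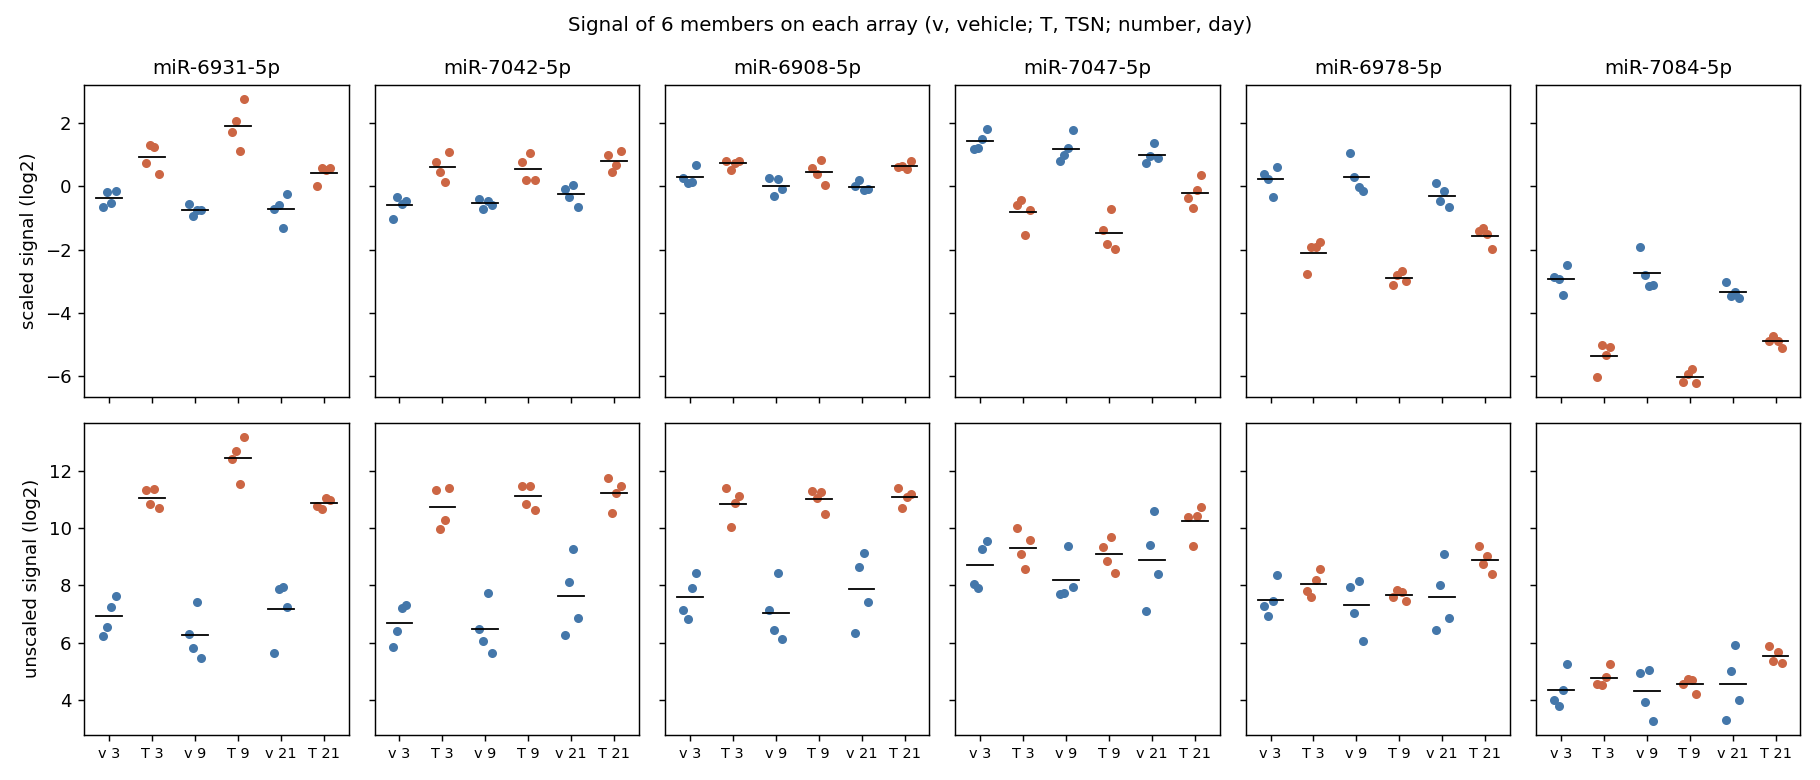
Scaled (top) and unscaled (bottom) log2 signal of 6 members on each array, with points for arrays and a line at the mean of 4 (v, vehicle; T, TSN; the number is the day). For miR-6931-5p, miR-7042-5p and miR-6908-5p the TSN arrays are higher in both panels, except that scaled values of miR-6908-5p overlap at days 3 and 9. For miR-7047-5p, miR-6978-5p and miR-7084-5p the TSN arrays are lower when scaled and overlap the vehicle arrays when not.

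Among the 27 members above background on all 24 arrays, the mean unscaled change over the 3 days ran from 0.55 for miR-7084-5p, 0.73 for miR-6978-5p and 0.81 for miR-6937-5p up to 3.50 for miR-6908-5p, 4.11 for miR-7042-5p and 4.69 for miR-6931-5p. All 27 had a positive unscaled change at each day, from 0.42, 0.25 and 0.99 upward, with 21, 21 and 27 called higher, beside 116, 118 and 118 of the 125 other miRNAs measured on all arrays. In scaled signal their median was -0.23, -1.04 and -0.16, beside -0.01, -0.30 and -0.09 for the other 125. This comparison of medians has no test.

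The members that fell most in scaled signal shared letters in the part their probes read. Both miR-7047-5p and miR-6937-5p hold a run of 12 bases, in capitals here.
miR-7047-5p: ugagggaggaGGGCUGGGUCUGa
miR-6937-5p: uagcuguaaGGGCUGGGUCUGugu
Their seeds differ, and their scaled signals over the 24 arrays had a correlation of r = 0.997 (0.989 over 12 vehicle and 0.992 over 12 TSN arrays). Of all tested miRNAs these were the most alike to miR-7047-5p, followed by miR-3620-5p (r = 0.966) and miR-7221-3p (0.962). Among the 27 members measured on all arrays, the 6 pairs sharing a run of 8 or more bases had r from -0.435 to 0.997 (median 0.716), beside a median of 0.523 over all 351 pairs. miR-7047-5p, miR-6937-5p, miR-3620-5p and miR-7221-3p share GGCUGGG, found on the miRNA strand in probe targets of 10 of the 1881 miRNAs (0.532%) and 3 members. The third member, miR-6970-5p, changed by 0.24 and -0.17 at days 3 and 21, neither called, and was lower at day 9 as above. Of 5 tested miRNAs with the run that are no members, 3 were lower at each day and 1 was higher at day 9. The 5 include miR-3620-5p and miR-7221-3p, from which the run was read because they resemble miR-7047-5p. This count is therefore no support for the run. These arrays share their scaling and their brightness within an arm, so r is given as a description.

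A second run, GAGAG, was common to most of the other steep falls but not to all. miR-6961-5p, without it, changed by -1.59, -2.39 and -0.70 at days 3, 9 and 21, the last not called. miR-7075-5p, lower at each day, lacks it too. The probe targets below show GAGAG in capitals, and miR-6908-5p holds it as well and rose.
miR-6978-5p: GAGAGagaagcuggug
miR-7084-5p: gaggauagagguaGAGAGu
miR-6946-5p: ggGAGAGaaagaaaugc
miR-6938-5p: uagcuccaGAGAGagu
miR-6957-5p: aaGAGAGacaggaucuag
miR-6908-5p: caggGAGAGcccca
The scaled signals of miR-6978-5p and miR-7084-5p had r = 0.994 over 24 arrays, and those of miR-6946-5p and miR-6938-5p with miR-6978-5p 0.990 and 0.987. Over the 24 arrays miR-6908-5p, with the run, had r = -0.598 with miR-7084-5p and -0.565 with miR-6978-5p. Within an arm these were positive, 0.412 and 0.423 over vehicle arrays and 0.338 and 0.315 over TSN arrays. The negative values thus lie in the difference between the arms. miR-6961-5p, without the run, had 0.965 with miR-6978-5p (0.847 over vehicle and 0.944 over TSN arrays). Searched on the miRNA strand of all probe targets, GAGAG was present in 23 members (11.7%) and in 54 of the 1881 miRNAs (2.87%). It was chosen after the values were seen, so the counts that follow have no test.

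Of the 23 members with GAGAG in the target 17 were tested (73.9%), against 56 of 173 without (32.4%). Among other miRNAs, 25 of 31 with it were tested (80.6%) and 343 of 1654 without (20.7%). In scaled signal 10 of the 17 members with the run were lower at day 3, 14 at day 9 and 6 at day 21, with medians of -0.61, -1.18 and -0.30. The 56 without had 5, 20 and 4 lower and medians of 0.11, -0.07 and 0.13. The 17 include miR-6978-5p, miR-7084-5p, miR-6946-5p, miR-6938-5p and miR-6957-5p, from which the run was read because they fell. Each of these was lower at all 3 days. The counts and medians of the 17 are therefore no support for the run. Among 25 tested miRNAs that are no members but hold the run, 12, 18 and 12 were lower, with medians of -0.44, -0.78 and -0.20, beside 0.15, 0.00 and 0.00 over 343 without. In unscaled signal the 17 had medians of 1.13, 1.15 and 1.73 and the 56 of 1.93, 2.13 and 2.14. Among miRNAs that are no members they were 2.35, 2.29 and 2.11 with the run and 2.32, 2.54 and 2.07 without.

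The 172 members carried 151 seeds, and 18 seeds belonged to more than 1 member (39 members). In 3 pairs both members were tested. For the seed GAGGGAG, miR-7047-5p fell by 2.67 at day 9 while miR-6965-5p rose by 0.45 (limma adjusted p = 0.0312). For AGGAGGA, miR-6942-5p changed by -1.69 at day 9, where all 4 TSN arrays were at the floor, and miR-6916-5p by 0.75 (adjusted p = 0.0114). For UCUGGGA, miR-6907-5p changed by -1.04 at day 9 (adjusted p = 0.00322) and miR-7019-5p by 0.05 (0.669). In each pair at least 1 member was above background on at most 1 vehicle array of that day, and the differences within pairs were not tested.

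Time was compared within a slide in 2 cases. Vehicle arrays of days 9 and 3 shared a slide, and there 1 of 73 members was higher at day 9 (9.75% of all tested) and 5 were lower (4.31%) in scaled signal. miR-7020-5p went from -2.02, -1.63, -1.39 and -1.37 to -0.74, -1.06, -0.13 and -0.63, a change of 0.96 (SE 0.183, limma adjusted p = 0.00249). The 5 lower were miR-7039-5p (-0.91, adjusted p = 0.0224), miR-7015-5p (-0.85), miR-7046-5p (-0.75), miR-7040-5p (-0.68) and miR-7018-5p (-0.57, adjusted p = 0.0224). Of these, miR-7046-5p was above background on 1 of 4 vehicle arrays at day 3 and 0 of 4 at day 9, so its size is not measured. At day 9 miR-7039-5p was above background on 2 of 4 vehicle arrays and miR-7018-5p on 1 of 4. With 1 array left out, 2 of 8 fits lost the call of miR-7039-5p and 3 of 8 that of miR-7018-5p (limma adjusted p up to 0.0691 for each). Without scaling no member and no other miRNA was called, and the count in scaled signal ranged from 2 to 8 when single arrays were left out (3 without day 3 replicate 3, 2 without day 3 replicate 4 and 2 without day 9 replicate 2).

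TSN arrays of days 21 and 9 shared another slide. Here 31 members were higher at day 21 (42.5%, against 30.6% of all tested) and 2 lower (2.74% against 12.7%), with a median of 0.36 beside 0.18. In unscaled signal 8 were higher (9.07% of all tested) and 1 lower (6.58%). miR-6995-5p went from -2.26, -2.46, -1.66 and -2.05 to -0.99, -0.84, -0.91 and -0.82, a change of 1.22 (SE 0.157, limma adjusted p = 1.77e-05). miR-6934-5p changed by 1.74 (SE 0.213, adjusted p = 9.2e-06; -4.84 when the software's total gene signal was used), miR-6931-5p by -1.48 (SE 0.284, 0.00043) and miR-7040-5p by -0.51 (SE 0.191, 0.0359). The last 2 are the members that were lower at day 21. With 1 array left out, 5 of 8 fits lost the miR-7040-5p call (limma adjusted p up to 0.105).

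The difference between TSN and vehicle changed between days for some members. TSN arrays of days 3 and 9 lay on different slides, while vehicle arrays of these days shared 1. Vehicle arrays of days 9 and 21 lay on different slides, while TSN arrays of these days shared 1. A change in the effect of TSN and a slide difference cannot be told apart here. From day 3 to day 9 the difference was called for 15 members, 2 higher (3.85% of all tested) and 13 lower (15.2%), in scaled signal, and from day 9 to day 21 for 29, 28 higher (23.4%) and 1 lower (11.8%). In unscaled signal 0 and 2 were called (3.85% and 9.75% of all tested). In scaled signal 26 and 33 members had an unadjusted p under 0.05 by limma, and the share over all tested was not counted. The largest falls from day 3 to day 9 were in miR-7020-5p (-1.39, SE 0.258, limma adjusted p = 0.00106) and miR-6995-5p (-1.31, SE 0.222, 0.000467). For miR-7020-5p the vehicle mean went from -1.60 to -0.64 and the TSN mean from -1.70 to -2.13, so most of the fall lay in the vehicle arrays. A second probe of miR-7020-5p gave -1.06 for TSN against vehicle at day 3, beside -0.10 by the probe used. miR-6931-5p gained 1.37 (0.02) and lost 1.51 again by day 21 (0.00713).

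Markers of other tissues were counted beside these changes. Of 4 red cell miRNAs 3 were higher with TSN at day 9. The summed scaled signal of the 4 was 75.1 to 94.4, against at most 65.6 on vehicle arrays of that day. The highest vehicle array of day 21 lay above this TSN range. Of 3 liver miRNAs 2 were higher with TSN at day 9 (0.51 to 4.89 against 0.287 to 0.446). Of 3 muscle miRNAs 2 were higher (0.168 to 1.15 against 0.0272 to 0.0714), with miR-206-3p above background on no array. Of 2 leukocyte miRNAs 2 were lower (0.364 to 0.696 against 1.32 to 1.59), as were 2 of 3 platelet miRNAs (1.24 to 1.71 against 1.74 to 2.23). At day 3, 1 red cell miRNA was higher and 2 lower, 1 liver miRNA was higher and 1 leukocyte miRNA lower. At day 21, 1 liver miRNA was higher, and 1 red cell, 2 platelet and 2 leukocyte miRNAs were lower. Fewer cells of a type and less RNA per cell cannot be told apart in serum, and the part of these markers in the members' change was not tested.

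Mirtrons known from other work gave no single direction. miR-1224-5p, above background on all 24 arrays, was lower with TSN at each day (-1.13, -0.95 and -0.78; limma adjusted p = 4.53e-07, 2.62e-06 and 4.94e-05). miR-877-5p was higher at days 9 and 21 (0.75 and 1.18; adjusted p = 0.00063 and 1e-05) and changed by 0.34 at day 3 (0.103). miR-702-3p was above background on 8 of 12 vehicle arrays and on 0 of 12 TSN arrays. The opposite strands miR-877-3p, miR-1224-3p and miR-702-5p were not tested, being above background on no array.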

How the data were processed

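Serum exosome miRNA of 24 mouse serum samples was read on one-colour Agilent arrays (4 slides). The scanner files hold intensity per spot: background was subtracted and a spatial trend corrected by Feature Extraction 10.7.1.1, per the file headers, with no scaling between arrays. Its flags for spots well above background are other values, used as deposited. The authors' processed table holds log2 values whose scaling and centring are not given in the sources used here; its column medians ran from 4.37 to 4.40, and over tested members it correlated with the scaled values at r of 0.951 to 0.976 on each array.

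Control spots and outlier spots were left out, spots of a probe (6 to 15) were averaged, and the probe with the highest mean scaled signal stood for a miRNA. Arrays were divided by the 75th percentile over 261 probes well above background on all arrays, floored at 0.0135 and logged. limma 3.58.1 (R 4.3.3, prior degrees of freedom 1.36) fitted 1 model over the 6 groups, checked on simulated data. The tests of counts against brightness used SciPy 1.17.1, and the other tests of arrays were enumerated directly in Python 3.11.15. Floored values were not ranked. The number of arrays limits the precision. Where a second probe of a called member was also measured, 1 of 38 such calls had the opposite sign by it (miR-6908-5p at day 9). The labels state no pairing of samples. Only at day 9 did all 4 same-numbered pairs of TSN and vehicle arrays deviate together (r of 0.204 to 0.357). The replicate number is also the array's column on its slide, so pairing and column cannot be told apart.

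Members and lists were chosen with earlier results of these data known. Genes were named by brightness, largest changes, bounds, smallest adjusted p in the day comparisons, shared seeds and likeness to the brightest member; miR-6938-5p and the GAGAG and GGCUGGG runs were chosen after their values were seen, as was the relation of counts to brightness. Alternatives were other scalings, background, probes, filters and floor, the replicate block, and leaving out arrays. Sequences come from RefSeq (GRCm38.p6) for 172 members and from the deposited probes.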

Additional observations from a re-analysis of the deposited data

Results flagged for a closer look

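Of 115 groups of 4 arrays, taken from the signals of 19 members and the counts above background (5 more with values at the floor were left out), 5 had 1 array far from the other 3 by Dixon's criterion; chance alone sets apart about 1 in 20. In scaled log2 signal miR-6931-5p read 0.00 on TSN day 21 replicate 1 against 0.50 to 0.59 on the others. miR-6978-5p read -2.78 on TSN day 3 replicate 1 against -1.93 to -1.77. miR-6987-5p read -1.14 on TSN day 3 replicate 3 against -0.44 to -0.31. miR-7018-5p read -3.08 on TSN day 3 replicate 2, above the -3.69 to -3.66 of the others. miR-7040-5p read -1.31 on vehicle day 9 replicate 2 against -1.11 to -1.08.

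The difference between TSN and vehicle changed between days by limma's interaction test for several members, where day and slide cannot be told apart. From day 3 to day 9 it grew by 1.37 for miR-6931-5p and 0.90 for miR-7040-5p, and changed by -1.31 for miR-6995-5p and -1.39 for miR-7020-5p. From day 9 to day 21 it changed by -1.51 for miR-6931-5p, 1.74 for miR-6934-5p and 1.31 for miR-6995-5p. All vehicle values of miR-6934-5p were at the floor at both days, so its 1.74 repeats its change between the TSN arrays.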

How the results depend on the processing

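The values below are counts of called members at days 3, 9 and 21 for TSN against vehicle, then for vehicle day 9 against 3, TSN day 21 against 9, and the TSN effect at day 9 minus 3 and 21 minus 9 (6, 33, 15 and 29 as reported). The percentile over all probes gave 23, 29 and 17 higher, 8, 7 and 4 lower, then 0, 10, 1 and 7. No scaling gave 62, 61 and 72 higher, 0, 0 and 0 lower, then 0, 9, 0 and 2. Spike-in scaling gave 60, 56 and 64 higher, 0, 1 and 0 lower, then 0, 13, 1 and 5. The authors' values gave 28 and 38 higher at days 3 and 9 and 17 lower at day 9, then 19, 5 and 19 for the last 3. Normexp gave 3, 4 and 3 higher, 64, 68 and 61 lower, then 0, 16, 5 and 14. Total gene signal gave 20 and 6 lower at days 9 and 21, 0 for vehicle and 5 for day 9 minus 3. No filter gave 10 higher at day 9 and 6 lower at day 21, and 1, 6 and 19 for vehicle and the 2 differences of effect. Only miRNAs on all 24 arrays (27 members) gave 3, 5 and 4 higher, 19 lower at day 9, and 3, 8 and 18 for the same 3. Quantile normalization gave 6 for day 9 minus 3. The causes were not tested, except that the stricter filter tests fewer members.

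Leaving out 1 array at a time gave 10 to 15, 10 to 16 and 14 to 19 higher, 13 to 21, 29 to 37 and 8 to 10 lower, then 2 to 8, 31 to 42, 9 to 20 and 23 to 34; the lowest count of 10 at day 9 came without vehicle replicate 2 or TSN replicate 3, and 9 without TSN day 9 replicate 4. The differences in members above background ran from 34.1 to 43.8 and the shares from 6.71 to 7.37 and 16.4 to 17.0 points. With the replicate number as a block the counts were 12, 15 and 18 higher and 15, 33 and 9 lower, then 5, 33, 12 and 29. This block changed no count by over 1.5 times. Some signs against 0 turned with shifts common to the arrays (medians over all miRNAs of 2.20, 2.42 and 2.07 without scaling, 1.67, 1.86 and 1.41 with spike-ins and -1.51, -1.74 and -1.17 with normexp). Without scaling miR-6957-5p, miR-7084-5p, miR-6937-5p and miR-6978-5p gave 0.02, 0.42, 0.48 and 0.54 at day 3 and 0.99, 0.99, 1.24 and 1.29 at day 21, and miR-7084-5p, miR-6978-5p, miR-6946-5p and miR-6937-5p gave 0.25, 0.36, 0.56 and 0.72 at day 9. With spike-ins the first 4 gave 0.20, 0.20, 0.44 and 0.50 at day 21. Normexp gave -0.57 for miR-6898-5p and -0.97 for miR-6934-5p at day 21 and 0.03 for miR-7018-5p in vehicle. Total gene signal gave -4.84 for miR-6934-5p from day 9 to 21 and -4.56 for its effect. Of named calls, 66 were lost without a change of sign under such settings, 369 were kept and 22 of 360 were lost with 1 array left out.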
